A study of Mus musculus with 30 samples.

Results

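The Fos, Jun and Egr immediate early genes were described across 5 conditions of cultured muscle cells. The members were the 10 genes Fos, Fosb, Fosl1, Fosl2, Jun, Junb, Jund, Egr1, Egr2 and Egr3, chosen by symbol, out of 55487 genes in the table. All 10 passed the filter on low counts, as did 15907 genes in all. The cells were wild-type C2C12 myotubes, multinucleate cells formed by fusion of a mouse myoblast line, and all groups were first differentiated for 4 days in medium with 2% horse serum. For 4 further days, the 2% HS group stayed in that medium, and the SD group was kept without serum (serum-deprivation). The MET group had no serum and 100 nM added metformin, and the LEU group no serum and 500 nM added leucine. The MET+LEU group had no serum with both added. Each group had 6 libraries of ribosomal RNA-depleted total RNA. Levels are given as CPM, a gene's counts scaled to a common library total, after TMM scaling, which corrects that total for composition, and values after ± are standard deviations over the 6 libraries of a group.

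As a class, immediate early genes are transcribed within minutes of a stimulus such as serum, without new protein synthesis, and their mRNAs are short-lived. Serum acts on them mainly through the ERK kinases, which phosphorylate ternary complex factors bound with serum response factor (SRF) at CArG boxes, while other signals reach them through CREB at cAMP response elements. Fos and Jun proteins pair into the transcription factor AP-1, in which Jun proteins can pair with each other and Fos proteins need a Jun partner. Egr proteins are zinc finger factors that bind GC-rich sites and are held back by the NAB corepressors. In muscle cells, Jun and Fos proteins are known to oppose MyoD, and Egr3 is needed for muscle spindles. The libraries were made 4 days after serum was removed, so the acute response, and how its timing differs between the members, lies outside these measurements.

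A promoter window was found in the RefSeq table (GRCm38.p6) for 7 of the 10 members. Fosl1, Egr1 and Egr3 had no window and were not searched. Searched on both strands in the 250 bases before each start were the CArG box, the cAMP response element core TGACGT, the AP-1 site TGANTCA, the variant AP-1 site TGACATCA known from Jun, and the EGR site GCGNGGGCG. Bases farther from the start were not searched. Below are the 150 bases before the start for 4 members whose windows held a match. Fos, Fosl2 and Jun are shown as the members called in MET+LEU vs. SD (adjusted p under 0.05). Fos and Fosl2 were lower there, and Jun was higher with a call that was lost without MET+LEU replicate 6. Egr2 is shown as a member that held a CArG box. Capitals mark the matches.
Fos: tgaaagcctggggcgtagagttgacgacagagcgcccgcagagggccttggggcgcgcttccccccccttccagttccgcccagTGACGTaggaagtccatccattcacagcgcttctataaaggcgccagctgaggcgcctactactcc
Jun: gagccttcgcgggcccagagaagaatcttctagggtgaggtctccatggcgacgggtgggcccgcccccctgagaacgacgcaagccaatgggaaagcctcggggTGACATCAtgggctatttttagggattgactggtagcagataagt
Fosl2: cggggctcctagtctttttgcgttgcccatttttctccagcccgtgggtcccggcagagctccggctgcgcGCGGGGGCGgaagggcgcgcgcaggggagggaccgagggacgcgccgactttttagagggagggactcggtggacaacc
Egr2: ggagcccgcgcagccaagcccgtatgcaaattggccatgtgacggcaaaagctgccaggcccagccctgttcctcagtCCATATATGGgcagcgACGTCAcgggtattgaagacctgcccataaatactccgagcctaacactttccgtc

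These stretches lie before the starts of Fos at chr12:85473740-85473889 (plus strand), Jun at chr4:95052223-95052372 (minus strand), Fosl2 at chr5:32136322-32136471 (plus strand) and Egr2 at chr10:67537719-67537868 (plus strand). Egr2 had 5 windows, and the stretch shown is from window 3. Windows 2 to 5 each held a CArG box. That shown lay 72 to 63 bases before its start, and 133 to 124 bases before the start of window 5. The capitals mark TGACGT in Fos, 66 to 61 bases before the start, and TGACATCA in Jun, 45 to 38 bases before it. In Fosl2 they mark an EGR site 79 to 71 bases before the start, and in Egr2 a CArG box and, read on the other strand, TGACGT. Among the other members, the Fosb window held an EGR site 50 to 42 bases before the start, and no searched motif was found in the Junb and Jund windows. No searched motifs overlapped in the members. Of 32851 windows in the table, 1.47% held a CArG box, 6.47% TGACGT, 6.75% TGANTCA, 2.93% TGACATCA and 4.7% the EGR site. TGANTCA was in no searched window of the members, and of the members Jun held the variant AP-1 site TGACATCA. A match describes letters in these windows and is not a measured binding site.

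In the GENCODE M21 annotation of GRCm38, the members lie on 9 chromosomes, with Fos at chr12:85473890-85477273, Jun at chr4:95049034-95052222, Fosl2 at chr5:32135801-32157842, Egr3 at chr14:70077203-70082614 and Egr1 at chr18:34859823-34864984. In all, 4 members overlap a gene on the opposite strand: Jun overlaps the antisense gene Junos, Junb overlaps Prdx2, Fosl1 overlaps Ccdc85b and Jund overlaps Gm11175. Whether counting used the strand is not given in the sources used here, so how reads in those overlaps were assigned, or whether they were counted, is not known. The peroxiredoxin Prdx2 had a mean of 325 ± 14.6 CPM without treatment (SD) and 357 ± 11.9 CPM with the combination. Junos had group means between 3.88 and 4.94 CPM.

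Libraries held 12784960 to 19604103 counts, and 3 counts, the limit that a count of 0 allows, equalled 0.152 to 0.243 CPM. These limits cover counting error only. The replicates are numbered in the labels, which do not say whether they were separate cultures, so p-values measure the spread between these libraries. MET+LEU replicate 6 stood apart: 7.64% of its counts fell on mitochondrial rRNA and 5.85% on nuclear rRNA genes, against at most 0.760% and 1.96% in the other 29 libraries. The mitochondrial rRNA share also differed between groups, at 0.219% to 0.306% in 2% HS, 0.281% to 0.367% in SD, 0.244% to 0.705% in MET, at least 0.501% in LEU and 0.649% to 0.760% in the other 5 libraries of MET+LEU. MET+LEU replicate 6 had the lowest level of its group for Fos, Fosl2, Junb, Jund, Egr2 and Egr3. It had the highest for Jun and Fosl1. Values without it are given beside the results it moves, where they were computed. All 12 myotube marker genes, among them Myh1, Myh3, Ckm and Tnnt3, were detected in every library.

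Junb, a Jun protein with weak transactivation, was the most abundant member per exon length, with group means of 117 to 135 CPM per kb. Jun and Jund followed at 51.8 to 74.5 and 60.6 to 69.7 CPM per kb, and Egr1, Egr3 and Fosl2 lay between 25.4 and 44.3 CPM per kb. Fos and Egr2, both classical serum-induced genes, were at 4.54 to 6.30 and 4.87 to 5.62 CPM per kb. Fosl1, which encodes Fra-1, was at 1.49 to 2.09 CPM per kb, and Fosb was lowest at 0.498 to 0.695 CPM per kb. Of the 4 Fos genes, Fosl2, which encodes Fra-2, had the highest level per exon length in every group. Fosb and Fosl1 had 27 to 87 counts per library, and their coefficients of variation within groups ran from 14.1% to 26.6%, against 1.69% to 4.56% for Fosl2.

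**Figure D1:**
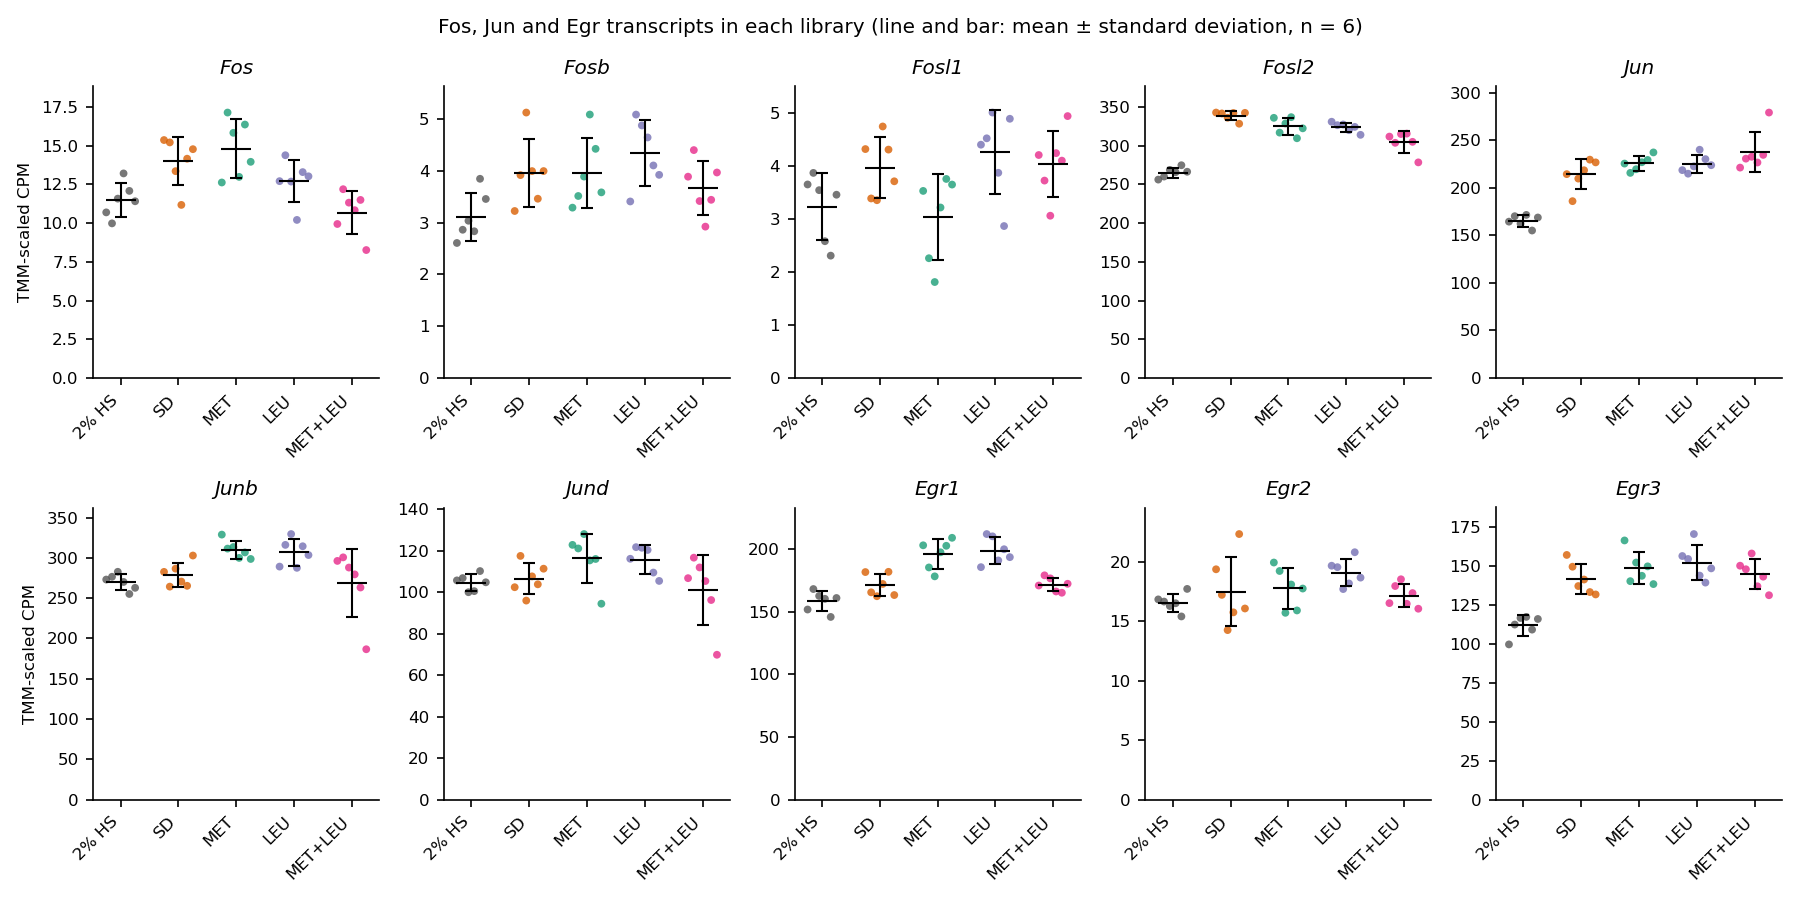
Level of each of the 10 members (y axis, TMM-scaled CPM, starting at 0) in every library of the 5 groups (x axis), 1 point per library, with the group mean and standard deviation (n = 6). The 6 libraries of 2% HS lie below all SD libraries for Fosl2, Jun and Egr3, and the low MET+LEU points of Junb (186.5 CPM) and Jund (69.8 CPM) are replicate 6.

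Removal of serum was compared first (SD vs. 2% HS), and after 4 days 5 of the 10 members were higher without serum and none was lower. Levels of Jun, Fosl2 and Egr3 were 1.29-, 1.28- and 1.27-fold those in 2% HS, and Fos and Egr1 were 1.21- and 1.08-fold. All 10 log2 differences were positive, with a median of 0.29 against 0.0028 over all genes tested. Of all genes tested, 27.8% passed an adjusted p under 0.05, 13.9% in the higher direction.

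Jun, the AP-1 subunit that can pair with itself, ranged from 155 to 171.5 CPM in 2% HS (median 167) and from 186 to 229.5 CPM in SD (median 216). The groups did not overlap, and the log2 difference was 0.37 (standard error 0.04, adjusted p = 3.16e-09). Fosl2 ranged from 256 to 275 CPM in 2% HS (median 266) and from 328 to 343 CPM in SD (median 342). It was higher in every SD library (log2 difference 0.35, standard error 0.03, adjusted p = 5.06e-13). Egr3 ranged from 99.8 to 117.5 CPM in 2% HS (median 114) and from 132 to 157 CPM in SD (median 139), again without overlap, and its log2 difference was 0.34 (standard error 0.05, adjusted p = 1.00e-06). Groups did not overlap for 13.6% of all genes tested.

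Fos and Egr1 rose less clearly. Fos was at 9.98 to 13.2 CPM in 2% HS and 11.2 to 15.4 CPM in SD, with 5 of 6 SD libraries above every 2% HS library, and the log2 difference was 0.28 (standard error 0.09, adjusted p = 0.0201). The call was lost without 2% HS replicate 2 (adjusted p = 0.0609) or SD replicate 1. Egr1, the EGR member with the highest level per exon length, was at 146 to 168 CPM in 2% HS and 162 to 182 CPM in SD, so the groups overlapped, and the call (log2 difference 0.11, standard error 0.04, adjusted p = 0.0316) was lost under upper-quartile normalization and without any of 5 single libraries, 2% HS replicates 1 and 5 and SD replicates 1, 4 and 5 (highest adjusted p = 0.106). The other members had log2 differences of 0.35 for Fosb (adjusted p = 0.0567), 0.30 for Fosl1 (0.161), 0.08 for Egr2 (0.507), 0.05 for Junb (0.684) and 0.02 for Jund (0.861). Fosb passed without 2% HS replicate 5, SD replicate 1 or SD replicate 5 (lowest adjusted p = 0.0310). The 95% intervals for Junb (-0.10 to 0.19) and Jund (-0.15 to 0.20) leave out a change as large as that of Jun.

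A list of 8 fibroblast marker genes moved with serum removal as well. All 7 that could be tested were higher in SD, among them Dpt, Col3a1 and Pdgfra, and their summed level was 3251 to 3559 CPM in 2% HS and 5541 to 5882 CPM in SD. The defining fibroblast surface marker Thy1 was at 0 to 7 counts in every library. Of 11 markers of unfused myoblasts and reserve cells, 2 were higher and 5 lower, with Pax7 at 190 ± 5.67 CPM in 2% HS and 147 ± 8.43 CPM in SD. In bulk RNA, more cells of a type and more RNA per cell cannot be told apart, and the part of cell makeup in the members' differences was not tested.

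Metformin and leucine were then each compared with SD. These 2 comparisons and that of MET+LEU share the same 6 SD libraries. Egr1 was the member that passed the test with either agent alone, higher in both, and the other 9 did not pass in either. Of all genes tested, 0.157% passed with metformin and 0.553% with leucine, counts of 25 and 88 genes that ran from 4 (without MET replicate 4) and 43 (without LEU replicate 4) to 160 and 269 (without MET+LEU replicate 6) as single libraries were left out.

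Libraries of SD held 162 to 182 CPM of Egr1 (median 169), against 178 to 209 CPM in MET (median 199.9) and 185.5 to 212 CPM in LEU (median 197). Every LEU library lay above every SD library, while MET replicate 3 fell within the SD range. Its log2 difference from SD was 0.20 with metformin (adjusted p = 0.0192) and 0.22 with leucine (adjusted p = 0.00370), each with a standard error of 0.04, and 1.31% of all genes tested did not overlap between LEU and SD. The MET call was lost without SD replicate 2 or without any of MET replicates 1, 4, 5 and 6 (highest adjusted p = 0.0870), and the LEU call was kept under each of 37 alternatives. Every LEU library and 5 of 6 MET libraries also had a higher mitochondrial rRNA share than every SD library, and 4 of 10 proliferation markers were lower in LEU vs. SD (median log2 difference -0.30, against -0.09 in MET vs. SD). The part of these in the Egr1 differences was not tested.

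Junb and Jund did not pass the test with either agent. Libraries held 264 to 303 CPM of Junb in SD, 299 to 329 CPM in MET and 288 to 330 CPM in LEU, with log2 differences of 0.15 (adjusted p = 0.464) and 0.14 (adjusted p = 0.528). Without MET+LEU replicate 6, a library that belongs to neither comparison but enters the shared estimate of spread, Junb passed in both, with 0.16 (adjusted p = 0.0143) and 0.14 (adjusted p = 0.0204). In those fits 160 and 269 of 16062 genes passed. Jund, the Jun protein expressed most steadily in resting cells, had log2 differences of 0.13 and 0.12 (adjusted p = 0.643 and 0.689).

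Between the single agents, at their different doses, no member differed by edgeR's quasi-likelihood test or by DESeq2 (LEU vs. MET, 0.0754% of all genes tested). At an unadjusted p under 0.05 (8.68% of all genes tested) there were 2, Fos with -0.22 and Fosl1 with 0.49 on the log2 scale. Fosl1 was at 1.81 to 3.76 CPM in MET and 2.87 to 5.01 CPM in LEU. The 95% interval of LEU minus MET was -0.06 to 0.10 for Egr1 and -0.09 to 0.08 for Jun.

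The combination was compared with SD next (MET+LEU vs. SD). Fos fell to 0.766-fold and Fosl2 to 0.900-fold, Jun was called at 1.11-fold with a call that was lost without MET+LEU replicate 6, and Egr1 was at 172 ± 5.52 CPM against 171 ± 8.90 CPM in SD. Of all genes tested, 18.4% passed in this comparison, so 3 of 10 members is near the background.

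Fos ranged over 11.2 to 15.4 CPM in SD (median 14.5) and 8.26 to 12.2 CPM in MET+LEU (median 11.1). The groups overlapped through SD replicate 4, the lowest of that group, and the log2 difference was -0.39 (standard error 0.09, adjusted p = 0.00277). Fosl2 was at 278 to 315.5 CPM in MET+LEU (median 308), below every SD library (log2 difference -0.15, standard error 0.03, adjusted p = 3.86e-04). Groups did not overlap for 5.34% of all genes tested. Without MET+LEU replicate 6, the lowest library for both, Fos was at -0.33 (adjusted p = 0.00918) and Fosl2 at -0.13 (adjusted p = 0.00118), and both calls were kept under all 37 alternatives.

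Jun ranged over 186 to 229.5 CPM in SD and, with the combination, 221 to 279 CPM (median 232), so the groups overlapped. The call (log2 difference 0.15, standard error 0.04, adjusted p = 0.0127) rested on single libraries. Without MET+LEU replicate 6 it was 0.09 (adjusted p = 0.0890), the call was also lost without SD replicate 2, and with only the SD and MET+LEU libraries in the fit its adjusted p was 0.0937. The remaining 7 members lay between -0.11 (Fosb) and 0.03 (Egr3) on the log2 scale, with adjusted p from 0.622 to 0.955. Junb was at 186.5 to 301 CPM in MET+LEU and Jund at 69.8 to 117 CPM, both with replicate 6 lowest.

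**Figure D2:**
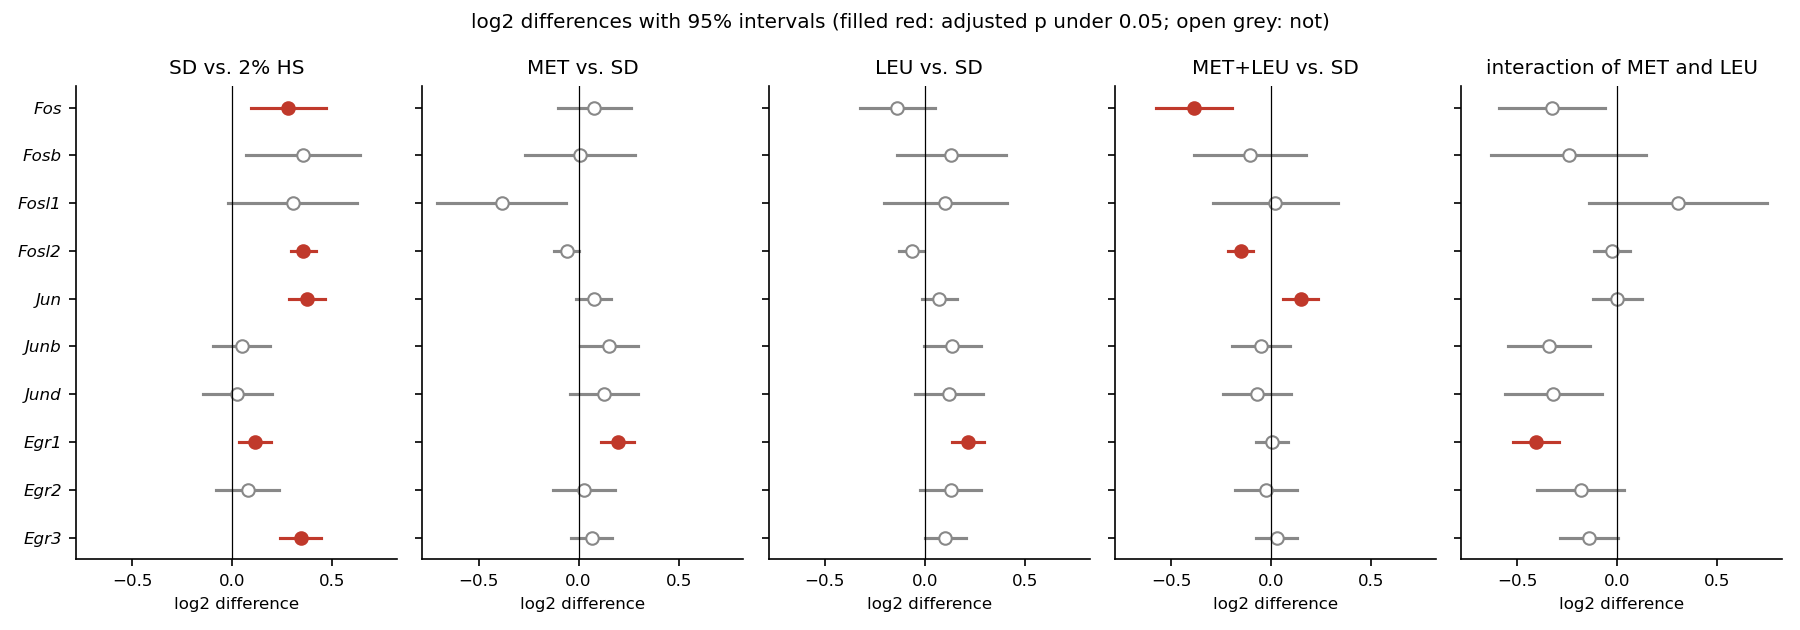
log2 difference of each member (rows) with its 95% interval in SD vs. 2% HS, in MET, LEU and MET+LEU vs. SD, and in the interaction of MET and LEU (x axis, log2 scale, same range in all panels). Filled red points passed an adjusted p under 0.05 in edgeR's quasi-likelihood test: 5 members in SD vs. 2% HS, Egr1 with either agent alone, Fos, Fosl2 and Jun with the combination, and Egr1 in the interaction.

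Whether the combination gave the sum of the single agents was asked with the interaction of MET and LEU (MET+LEU minus MET minus LEU plus SD on the log2 scale). Egr1 departed from the sum by -0.41 (standard error 0.06, 95% interval -0.52 to -0.29, adjusted p = 9.49e-05), and it had the lowest p of all 15907 genes. The share of all genes tested that passed was 0.0503%, or 8 genes, and between 1 and 11 genes passed as single libraries were left out. Adding both single differences would have put Egr1 at 227 CPM, and its MET+LEU mean was 172 CPM, with the 6 libraries between 165 and 179 CPM. The departure was called in each of the 37 alternatives, between -0.45 and -0.40, and was -0.42 without MET+LEU replicate 6 (adjusted p = 7.27e-06).

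The same values seen from each agent gave a fall of Egr1 when the second agent was added. Metformin added to leucine (MET+LEU vs. LEU) lowered Egr1 (-0.21 on the log2 scale, standard error 0.04, adjusted p = 0.00133), and every MET+LEU library lay below every LEU library. Of all genes tested 6.28% passed, and 3.6% did not overlap. Of the 10 members' log2 differences from LEU 1 was positive, with a median of -0.17 against 0.0025 over all genes tested. Besides Egr1, none passed. The 999 genes that passed were 457 without MET+LEU replicate 6, and 649, 396, 535 and 542 without LEU replicate 1, 3, 4 or 5. Leucine added to metformin (MET+LEU vs. MET, 8.69% of all genes tested) gave lower levels of Egr1 (-0.19, standard error 0.04, adjusted p = 0.00232) and Fos (-0.46, standard error 0.09, adjusted p = 0.00137). Fos was at 12.6 to 17.1 CPM in MET (median 14.9), above every MET+LEU library, and 3.77% of all genes tested did not overlap. In the fit without MET+LEU replicate 6, 726 genes passed in place of 1382, and Fos was at -0.41 (adjusted p = 0.00310). Fosl2 had an adjusted p of 0.0531 in MET+LEU vs. MET, at -0.09 on the log2 scale. It passed in most alternatives, DESeq2 included (adjusted p = 0.00786), and without MET+LEU replicate 6 it was at -0.08 (adjusted p = 0.144).

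No other member passed in the interaction, and 4 members, Egr1 included, had an unadjusted p under 0.05 (8.73% of all genes tested). Of the 10 members' interaction values 2 were positive, with a median of -0.21 against 0.014 over all genes tested, MET+LEU replicate 6 included. Junb had -0.34 (standard error 0.10, adjusted p = 0.261), Fos -0.33 (0.436) and Jund -0.32 (0.402). Junb was at 269 ± 42.5 CPM in MET+LEU against 341 CPM from adding the single differences. Without MET+LEU replicate 6, Junb was at -0.27 and passed (adjusted p = 0.0133, with 10 of 16062 genes called), and by DESeq2 on all libraries it was at -0.35 (adjusted p = 0.0174). Without that library Jund was at -0.25 (adjusted p = 0.374) and Fos at -0.28 (adjusted p = 0.571). Adding the single differences would have put Jun at 237 CPM, and 5 of the 6 MET+LEU libraries lay below that, between 221 and 235 CPM, with replicate 6 above it at 279 CPM. The interaction of Jun was 0.00 with a 95% interval of -0.12 to 0.12, and -0.06 without replicate 6 (-0.16 to 0.04, adjusted p = 0.827).

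**Figure D3:**
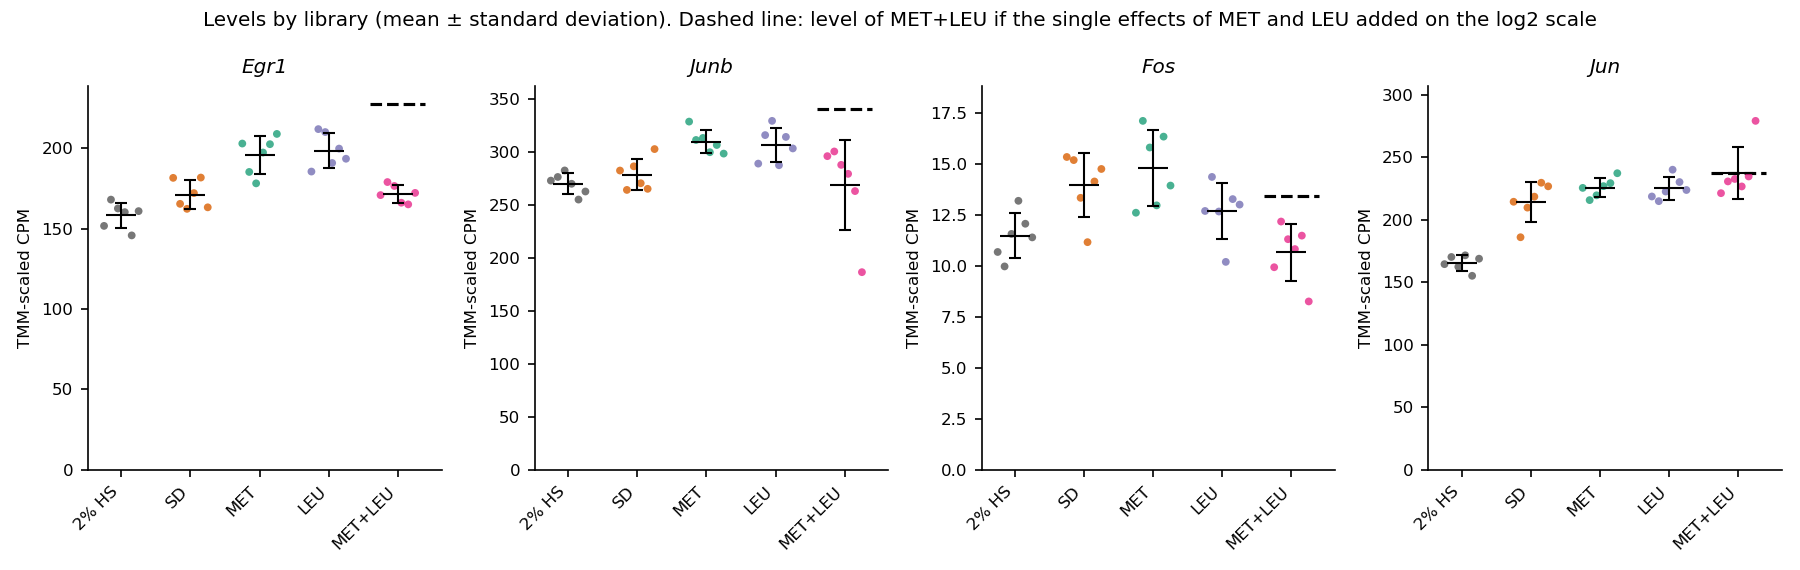
Levels of Egr1, Junb, Fos and Jun (y axis, TMM-scaled CPM, starting at 0) in every library of the 5 groups, with means and standard deviations (n = 6), and as a dashed line the MET+LEU level if the single differences of MET and LEU added on the log2 scale. The 6 libraries of MET+LEU lie under the line for Egr1 (227 CPM), Junb (341 CPM) and Fos (13.5 CPM). For Jun, 5 of the 6 lie under the line, at 221 to 235 CPM under 237 CPM, with replicate 6 at 279 CPM.

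Each group without serum was also compared with 2% HS. These 4 comparisons share the 6 libraries of 2% HS. Members called higher numbered 7 in MET vs. 2% HS, 8 in LEU vs. 2% HS and 4 in MET+LEU vs. 2% HS, and none was called lower. The shares of all genes tested were 35%, 29.7% and 42.3%, of which 17.4%, 14.4% and 22.1% of genes were higher. Jun, Fosl2, Egr1 and Egr3 were called in all of them and in SD vs. 2% HS. Jun was highest with the combination, at 1.43-fold its level in 2% HS (log2 difference 0.52, standard error 0.04, adjusted p = 1.89e-13), and at 1.38-fold without MET+LEU replicate 6 (adjusted p = 1.25e-15), and Egr3 was at 1.29-fold (0.37, standard error 0.05, adjusted p = 1.37e-07). Fos, in contrast, was at 10.7 ± 1.40 CPM in MET+LEU and 11.5 ± 1.12 CPM in 2% HS, a log2 difference of -0.11 with a 95% interval of -0.30 to 0.09 (adjusted p = 0.397). Junb and Jund were at 0.00 and -0.04 in MET+LEU vs. 2% HS, and without replicate 6 at 0.07 (adjusted p = 0.122) and 0.03 (adjusted p = 0.707).

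Several of these calls were near the threshold. Egr1 in MET+LEU vs. 2% HS (log2 difference 0.12, adjusted p = 0.0168) was lost under upper-quartile normalization and without 2% HS replicate 1, 2% HS replicate 5 or MET+LEU replicate 2 (highest adjusted p = 0.0656). Junb, at 0.20 in MET (adjusted p = 0.0286) and 0.18 in LEU (adjusted p = 0.0488), did not overlap with 2% HS in either group (20.2% and 18.6% of all genes tested), and the LEU call was lost in 26 of 37 alternatives, those without any of the 6 2% HS libraries or LEU replicates 2, 3, 5 and 6 among them (highest adjusted p = 0.106). Fosb was called in MET (0.36, adjusted p = 0.0430) and in LEU (0.49, adjusted p = 0.00612), and Fosl1 (0.40, adjusted p = 0.0475) and Egr2 (0.20, adjusted p = 0.0376) in LEU. The call of Junb in MET was lost without 2% HS replicate 5 or 6 or MET replicate 1 (highest adjusted p = 0.0636). That of Fosb in MET was lost with DESeq2, with the lighter filter on low counts, and without any of 2% HS replicates 1 to 4 and MET replicates 3, 4 and 5 (highest adjusted p = 0.153). Fosl1 was lost with upper-quartile normalization, with the lighter filter, and without any of 2% HS replicates 4, 5 and 6 and LEU replicates 1, 2, 3 and 6 (highest adjusted p = 0.128). Egr2 was lost without any of 2% HS replicates 2 to 5 and LEU replicates 1, 2 and 5 (highest adjusted p = 0.0947). Without 2% HS replicate 4, 2% HS replicate 5 or LEU replicate 2, the count in LEU vs. 2% HS was 5.

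Ordered by group mean, the members did not share a pattern over the 5 groups. Jun ran from MET+LEU (237 CPM) through MET, LEU and SD to 2% HS (165 CPM), and of these steps the last passed the test (SD vs. 2% HS). Fosl2 ran from SD (339 CPM) through MET, LEU and MET+LEU (305 CPM) to 2% HS (265 CPM), and its last step passed (adjusted p = 7.46e-07). Egr1 ran from LEU (199 CPM) and MET (196 CPM), which did not differ beyond their spread, to MET+LEU and SD, which likewise did not, and then to 2% HS (158 CPM), with the steps from MET to MET+LEU and from SD to 2% HS passing the test. Egr3 had 4 groups without serum that did not differ between neighbours, at 142 to 152 CPM, above 2% HS at 112 CPM. Fos was highest in MET (14.8 CPM) and lowest in MET+LEU (10.7 CPM), and no step between neighbours passed. Fosb, Fosl1, Junb, Jund and Egr2 likewise had no step between neighbours that passed. Jund was not called in any of the 10 pairwise comparisons, with group means of 101 to 116 CPM. Without MET+LEU replicate 6, it passed in MET vs. 2% HS (adjusted p = 0.0260) and LEU vs. 2% HS (adjusted p = 0.0383), and without MET replicate 6 in MET vs. 2% HS and MET+LEU vs. MET. With only the compared groups in the fit, Jund passed in MET vs. 2% HS (adjusted p = 0.0385) and LEU vs. 2% HS (adjusted p = 3.56e-04). In those fits 6331 of 15126 and 5734 of 15119 genes passed.

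The genes whose log2 CPM over the 30 libraries was most like a member's differed between Fos, Jun and Egr1. Among 12697 genes compared, Jun was closest to Bdnf, a neurotrophin (Pearson's r = 0.960), followed by Ccdc80, Aspn, Fkbp7 and Gprin3, at r of 0.956 to 0.954. Egr1 was closest to Cdc42ep5, an effector of Cdc42 (r = 0.839), followed by Phlda1, Itga3, Ski and Zyx. Fos was closest to Rhob, another immediate early gene (r = 0.795), followed by Tmbim6, Col1a1, Fbxw8 and Mrpl4. These are descriptions over 30 libraries that share group differences, and with group means removed r was 0.73 for Bdnf, 0.71 for Cdc42ep5 and 0.56 for Rhob. All of these r include MET+LEU replicate 6 and were not computed without it. That library was lowest of its group for Fos and highest for Jun. It held 211 CPM of Rhob, against 286 ± 12.6 CPM in the rest of MET+LEU.

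Within groups, the members did not vary together past the threshold. Of 45 pairs, 0 passed an adjusted p under 0.05 in a permutation test of Pearson's r within groups (100000 resamples, two-sided), and 14 had an unadjusted p under 0.05, of which 10 also did by Spearman's rho. The lowest p was that of Jun with Jund, at r = -0.66 (rho = -0.56, permutation p = 0.00384, adjusted p = 0.0957), which was -0.40 without the 2 libraries farthest from the median of Jun. Junb and Jund had r = 0.72 (rho = 0.41, permutation p = 0.0192), and 0.27 without the 2 farthest libraries. Without MET+LEU replicate 6, r was -0.39 for Jun with Jund (permutation p = 0.0470) and 0.24 for Junb with Jund (permutation p = 0.229). The lowest p was then that of Fosl1 with Egr1 (r = 0.56, permutation p = 0.00594, adjusted p = 0.267). Junb and Jund are also the members richest in G and C, with 62.6% and 67.1% in their longest transcripts against a median of 49.0% in the tested genes. Both were lowest of their group in MET+LEU replicate 6. Fosl1 (58.5%) and Jun (55.5%) were highest there, and Egr1 (57.3%) and Fosb (56.0%) at neither end. Fosl2, Fos, Egr2 and Egr3, at 51.3% to 53.1%, were lowest there as well. The part of G and C content in these levels was not tested.

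The genes around the members were followed with lists of the pathway. Of 34 other immediate early genes tested, 10 were higher, 8 lower and 16 not called in SD vs. 2% HS, with a median log2 difference of 0.04. Ccn2, a matricellular target of SRF and YAP, fell from 111 ± 9.16 to 52.8 ± 4.64 CPM (log2 difference -1.07), while Gadd45g (0.62) and Klf10 (0.60) rose. With the combination (MET+LEU vs. SD), 5 were higher, 6 lower and 23 not called, with Gadd45a rising (0.30) and Csrnp1 (-0.31) and Rhob (-0.26) falling. With MET+LEU replicate 6 left out, 3 were higher and 5 lower, with Gadd45a, Csrnp1 and Rhob among them.

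Upstream regulators were counted next, where the shares of all genes called were 27.8% for SD vs. 2% HS and 18.4% for MET+LEU vs. SD. Of 7 genes for SRF and its cofactors, 2 were higher and 2 lower in SD vs. 2% HS. Elk3, a ternary complex factor, rose from 38.3 ± 2.66 to 54.6 ± 2.83 CPM (0.51), and Srf (-0.19) and Fhl2 (-0.30) fell. With the combination, Srf was the gene called of the 7, at -0.16, and it fell from 63.7 ± 4.84 to 57.1 ± 5.24 CPM. Of 21 genes of the ERK and JNK cascade, 3 were higher and 3 lower in SD vs. 2% HS, among them Rps6ka5, a kinase of histones and CREB (-0.69), and Rps6ka2 (-0.29), both lower. The combination left 2 higher and 3 lower than in SD, the latter being Rps6ka4 (-0.21), Map2k7 (-0.17) and Mapk7 (-0.16). The call of Mapk7 was lost without MET+LEU replicate 6 (adjusted p = 0.110), as were the 2 higher calls, and those of Rps6ka4, Map2k7 and Srf (-0.15) were kept.

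Feedback inhibitors, which ERK induces and which switch it off, included 13 tested genes. In SD vs. 2% HS 2 were higher, Spry4 (0.48) and the ERK phosphatase Dusp6 (0.29), and Dusp7 was lower (-0.23). Against SD, MET+LEU had 2 lower, the phosphatases Dusp5 (-0.34) and Dusp1 (-0.18), and none higher. Of 11 AP-1 partners and EGR corepressors, 2 were higher and 4 lower in SD vs. 2% HS, with Atf3 (-0.58) and Maf (-0.49) among the latter. Between SD and MET+LEU, the EGR corepressor Nab1 (0.21) and the AP-1 repressor Jdp2 (0.21) rose and Mafg (-0.15) fell. All 3 of these calls were lost without MET+LEU replicate 6 (adjusted p = 0.0665, 0.0866 and 0.0657), as was Dusp5 (adjusted p = 0.0773).

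Reported target genes went both ways. Of 18 AP-1 and EGR targets tested, 5 were higher and 7 lower in SD vs. 2% HS. Ccnd1, the cyclin of G1, rose from 8.84 ± 0.886 to 20.1 ± 3.16 CPM (1.19), while Vegfa (-0.79) fell. Under MET+LEU, 3 were higher and 5 lower, with Hmga1 rising (0.51) and the cytokine Lif (-0.35) and the protease Plau (-0.32) falling. Of 16 cytoskeletal targets of SRF and its MRTF cofactors, 2 were higher and 8 lower in SD vs. 2% HS, with the largest named falls in Myl9 (-0.45), Acta2 (-0.33) and Actc1 (-0.29). The median of that list was -0.11 against 0.0028 over all genes. Of these, MET+LEU vs. SD called 2 higher, Tpm1 (0.35) and Lima1 (0.17), and Actg1 lower (-0.14). Lima1 was lost without MET+LEU replicate 6 (adjusted p = 0.0567), and in that fit the targets of AP-1 and EGR had 2 higher and 4 lower, Hmga1, Lif and Plau among them.

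**Figure D4:**
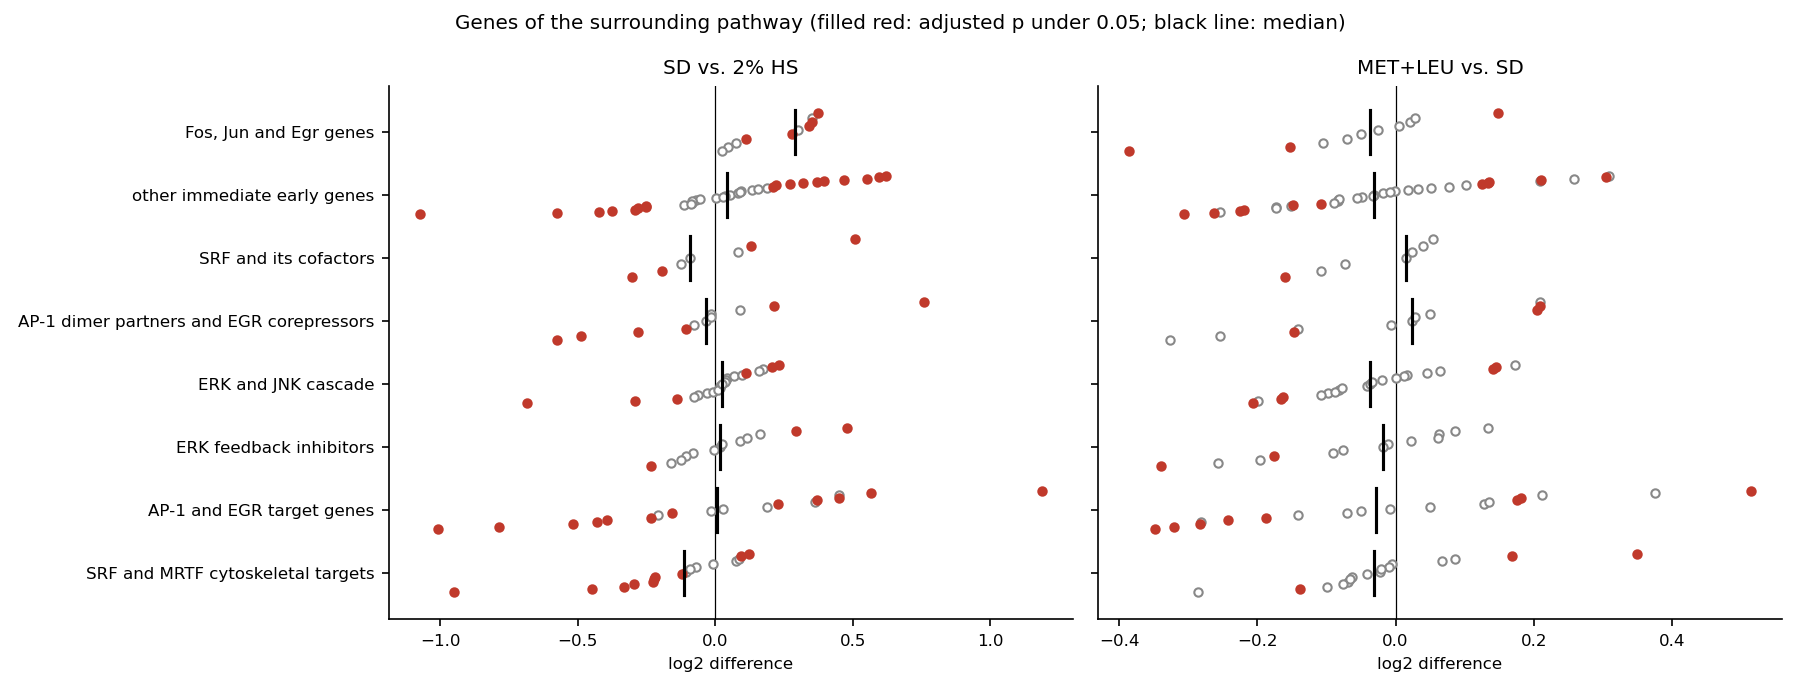
log2 differences (x axis) of the 10 members and of the genes of 7 surrounding lists (rows) in SD vs. 2% HS and MET+LEU vs. SD, 1 point per tested gene, filled red where the adjusted p was under 0.05, with the median of each list as a black line. The members' median was 0.29 in SD vs. 2% HS, and the other lists spread to both sides of 0 in both comparisons.

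Markers of other cell states were counted in the same comparison. All 10 proliferation markers were lower in MET+LEU vs. SD, with a summed level of 195 to 269 CPM in SD and 142 to 175 CPM in MET+LEU, and Ccnb1 fell from 10.0 ± 0.857 to 5.36 ± 0.764 CPM. Of 12 myotube markers 6 were higher and 1 lower, with Tnnt3 at 453 ± 33.2 CPM in SD and 797 ± 225 CPM in MET+LEU, or 708 ± 58.3 CPM over the 5 libraries other than replicate 6. Of 9 heat shock and handling genes, which are induced with immediate early genes when cells are stressed, 5 were higher and 1 lower, with summed levels of 1401 to 1567 CPM in SD and 1670 to 1911 CPM in MET+LEU. Of the fibroblast list 2 were higher and 1 lower, and of the unfused myoblast list 2 were higher. In SD vs. 2% HS, 5 myotube markers were lower, 2 proliferation markers and 2 heat shock genes were higher, and the other genes of those 3 lists were not called. In LEU vs. SD, 4 proliferation markers were lower and 1 myotube marker was higher. When MET+LEU replicate 6 was left out, 10 proliferation markers were lower and 6 myotube markers and 5 heat shock genes higher in MET+LEU vs. SD, and the 1 lower call in each of the latter lists was lost. The part of these differences in the members' values was not tested.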

How the data were processed

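Per the labels and the study's methods, total RNA of 30 C2C12 libraries was ribosomal RNA-depleted, and stranded libraries were sequenced in paired reads. The authors deposited raw read counts per Ensembl gene, whole numbers without normalization, and the submitters' processing notes name cutadapt 1.16, STAR 2.7.6a, featureCounts 1.6.3, DESeq2 1.30.1 and the build GRCm38. The annotation release, the strand setting and the handling of reads with several matches are not given in the sources used here. Of 55487 identifiers, 55227 matched GENCODE M21, which gave symbols, positions and exon lengths.

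Genes were kept by filterByExpr (minimum count 10, minimum total count 15), scaled by TMM and fitted with edgeR 4.0.16 (glmQLFit, robust, 1 mean per group, all 30 libraries) in R 4.3.3. Contrasts used the quasi-likelihood test with Benjamini-Hochberg adjustment over 15907 genes and a threshold of 0.05. Standard errors are the absolute log2 difference over the square root of F, and intervals cover 95%. Correlations used log2 CPM (prior count 2) centred on group means. Total counts had a median of 15434442.5 per library, and the common biological coefficient of variation was 0.0709. The labels give no batch. Alternatives were other normalizations, DESeq2 1.42.0, other filters, a model of the compared groups alone, a block for replicate number, and leaving out each library. The scripts were tested on simulated data.

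The members and the gene lists were chosen with earlier results of these data known. Genes named beside the members were the 3 of each list with the largest absolute log2 difference among those that passed and had a log2 CPM of 1 or more on average, and for Fos, Jun and Egr1 the 5 genes with the highest correlation; Pax7, Thy1 and the overlapping genes were named as values beside a result. Some genes that this rule would name are not reported here.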

Additional observations from a re-analysis of the deposited data

Results flagged for a closer look

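The difference that MET made to Egr1 depended on LEU: with LEU present minus without it, the log2 difference was -0.41 (adjusted p = 9.49e-05 by edgeR's quasi-likelihood test), as 0.20 in MET vs. SD became -0.21 in MET+LEU vs. LEU. All 6 MET+LEU libraries lay below the additive expectation of 227 CPM. This did not set Egr1 apart, as all 6 also lay below the expectations for Fos, Junb, Jund, Egr2 and Egr3. None of those members passed in the interaction by edgeR's quasi-likelihood test on all libraries. The share of all genes with this trait was not counted.

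In 50 sets of 6 libraries (10 members in 5 groups), 3 single libraries stood apart by Dixon's test, and chance flags about 1 set in 20. All 3 were MET+LEU replicate 6. It had 278 CPM of Fosl2, the lowest of its group, with the next at 304 CPM. It had 279 CPM of Jun, the highest of its group, with the next at 235 CPM. It had 186.5 CPM of Junb, the lowest of its group, with the next at 263 CPM. The same library had the high share of rRNA counts, and its members' counts were 3437 for Fosl2, 3445 for Jun and 2303 for Junb.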

How the results depend on the processing

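Of the 33 calls of members over 11 comparisons, 23 were kept under each of 37 alternatives and 0 changed sign; the 10 others are Fos and Egr1 in SD vs. 2% HS, Egr1 in MET vs. SD, Jun in MET+LEU vs. SD, Egr1 in MET+LEU vs. 2% HS, Fosb and Junb in MET vs. 2% HS, and Fosl1, Junb and Egr2 in LEU vs. 2% HS. Of 110 member comparisons, 66 were called in no fit. The count of members called in MET+LEU vs. LEU was 1, and 2 with upper-quartile normalization, 3 with DESeq2 and 2 with at least 10 counts in every library. In MET+LEU vs. MET it was 2, and 4 with DESeq2. In the interaction of MET and LEU it was 1, and 2 with DESeq2, the gain being Junb. The cause of these gains was not tested. With each library left out in turn, the counts ran from 4 to 5 in SD vs. 2% HS, 0 to 2 in MET vs. SD, 1 to 2 in LEU vs. SD, 2 to 3 in MET+LEU vs. SD, 3 to 4 in MET+LEU vs. 2% HS, 6 to 8 in MET vs. 2% HS, 5 to 9 in LEU vs. 2% HS, 1 to 2 in MET+LEU vs. LEU, 2 to 4 in MET+LEU vs. MET, 0 to 0 in LEU vs. MET and 1 to 2 in the interaction. Counts over 1.5 times the full count came without MET+LEU replicate 6 (MET vs. SD, LEU vs. SD and the interaction), without SD replicate 1 or MET+LEU replicate 4 (2 in MET+LEU vs. LEU), and without MET+LEU replicate 1 or MET replicate 6 (4 in MET+LEU vs. MET). Same-numbered libraries had a mean correlation of deviations of 0.0157, different-numbered ones -0.00314, and 11 of 30 libraries were closest to their own number. These values do not settle whether the replicate numbers pair the libraries. Over all genes, a block for replicate number gave 52 calls in place of 25 in MET vs. SD. In the interaction it gave 17 in place of 8. With the replicate number as a block, the counts were 5 in SD vs. 2% HS, 1 in MET vs. SD, 1 in LEU vs. SD, 3 in MET+LEU vs. SD, 4 in MET+LEU vs. 2% HS, 7 in MET vs. 2% HS, 8 in LEU vs. 2% HS, 1 in MET+LEU vs. LEU, 3 in MET+LEU vs. MET (adding Fosl2), 0 in LEU vs. MET and 1 in the interaction. The correlation count stayed at 0 of 45 pairs without MET+LEU replicate 6 and with DESeq2's size factors. At 27 to 87 counts per library, the depth limits Fosb and Fosl1, whose 95% intervals in SD vs. 2% HS were 0.07 to 0.64 and -0.02 to 0.62.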
